A study of Mus musculus with 2 samples.

Results

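The 10 genes described here encode the core of the switch from G1 to S phase: the D cyclins Ccnd1, Ccnd2 and Ccnd3, their kinases Cdk4 and Cdk6, the E cyclins Ccne1 and Ccne2 with their kinase Cdk2, the pocket protein Rb1 and the transcription factor E2f2. They were picked by symbol, 10 of the 32285 genes counted, and all 10 were found. They were chosen with their levels in these libraries in view, by cell type and in knockout spermatogonia and Sertoli cells, so the levels and differences below describe the genes that were chosen and test nothing. The data are 10x 3' V3 single-cell RNA counts from the testis of C57BL/6 mice aged 13 days, 1 library per genotype. The control library is labelled Psma7 F/+, 1 floxed allele beside 1 intact allele of the gene for the proteasome subunit α4. The knockout library is labelled Psma7 F/-;Stra8-Cre KI/+, 1 floxed and 1 null allele, plus a Cre that acts in germ cells as they leave the undifferentiated state. The control label gives no Cre and no null allele. The Cre allele, the null allele and the loss of Psma7 in germ cells therefore cannot be told apart. By the label, cells in which the Cre has not acted, such as somatic cells, still carry 1 floxed allele. The word knockout below names the library and does not mean that each of its cells lost Psma7. How many mice went into each library is not given, and with 1 library per genotype no difference has a replicate check or a test.

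In G1, growth signals raise D cyclins, which bind CDK4 or CDK6 and phosphorylate the retinoblastoma protein RB1. RB1 then lets go of E2F factors, which switch on the E cyclins and the genes of DNA replication, and cyclin E with CDK2 completes the phosphorylation of RB1. Inhibitors of the INK4 and CIP/KIP families hold these kinases back, and the cyclins and some of the inhibitors are removed by the proteasome. In the testis, cyclin D2 is known from spermatogonia that respond to GDNF and CDK2 also has a role in meiosis.

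Cdk6 had the largest ratio of the 10 genes in spermatogonia, and E2f2 had the highest one in Sertoli cells. Of the 6 genes whose starts could be searched, Cdk2 and E2f2 are those with an E2F motif near a start. The stretches next to the starts of Cdk6, Cdk2 and E2f2 are therefore shown. They are RefSeq sequences of GRCm38.p6, the 250 bases before a RefSeq start, read 5′ to 3′ on the strand of the gene. Capitals mark a match to an E2F motif, searched as TTTCCCGC, TTTCGCGC, TTTGCCGC and TTTGGCGC on both strands; no window below holds more than 1 match, so none overlap. The gene positions given further on are GENCODE's, and the annotations differ: the RefSeq start of E2f2 lies before its GENCODE start, so the E2f2 stretches are both upstream of the latter, and the Cdk6 stretch lies inside the GENCODE gene.
Cdk6, chr5:3343643-3343892, plus strand: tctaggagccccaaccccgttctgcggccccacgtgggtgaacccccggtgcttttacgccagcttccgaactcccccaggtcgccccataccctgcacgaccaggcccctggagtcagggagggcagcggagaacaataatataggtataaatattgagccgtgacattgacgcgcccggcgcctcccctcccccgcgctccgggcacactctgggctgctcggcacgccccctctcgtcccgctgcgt
Cdk2, chr10:128705052-128705301, minus strand: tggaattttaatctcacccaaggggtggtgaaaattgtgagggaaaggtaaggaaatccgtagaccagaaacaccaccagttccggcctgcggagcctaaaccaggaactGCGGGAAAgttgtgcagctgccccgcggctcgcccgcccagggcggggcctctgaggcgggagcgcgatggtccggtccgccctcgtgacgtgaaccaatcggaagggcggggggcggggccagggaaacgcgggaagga
E2f2, chr4:136172024-136172273, plus strand: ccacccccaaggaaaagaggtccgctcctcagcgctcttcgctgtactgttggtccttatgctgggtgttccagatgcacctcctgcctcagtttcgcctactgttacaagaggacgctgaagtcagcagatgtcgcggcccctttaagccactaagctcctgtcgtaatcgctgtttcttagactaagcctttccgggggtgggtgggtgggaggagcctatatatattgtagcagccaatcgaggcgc
E2f2 site after the RefSeq start, chr4:136172291-136172320, plus strand: atccgaatttggcggcatatagTTTGGCGC

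Windows of 300 bases, 250 before and 50 after a start, were on hand for 6 of the 10 genes, 8 windows in all: Ccnd3, Cdk4, Cdk6, Ccne1, Cdk2 and E2f2. A motif stood in 1 of the E2f2 windows, 39 bases after the RefSeq start, and in the Cdk2 window, 140 bases before it, where the letters are GCGGGAAA, the reverse complement of TTTCCCGC. The Cdk6, Cdk4, Ccne1 and Ccnd3 windows held none of the 4 words. Over all starts, 744 of 32851 windows held one, or 2.26%. A match is a description of letters and not a binding site.

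Levels are in CPM, the UMIs of a gene as parts per 1e+06 of all UMIs of a class and library, with exact 95% Poisson intervals, and log2 ratios are knockout over control with exact 95% intervals. All of these intervals cover counting error only. Where 2 values are paired, the control comes first and the knockout library second. Each transcript gives 1 tag near its 3′ end, so levels are not scaled by length. Whether reads in introns were counted is not given in the sources used here. The 10 genes differ widely in span, from 4.387 kb for Cdk4 to 189.524 kb for Cdk6, so the order of levels between genes is an order of tags.

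After filters, 10737 control cells held 115929415 of the 146528736 UMIs of their library, and 10589 knockout cells held 90948607 of 112746953. Cells were grouped without the 10 genes, and a class name means likeness to that cell type by its markers. In undifferentiated spermatogonia and in Sertoli cells all 18 and all 17 markers were higher than in the rest of the cells, in both libraries. The classes were named from these same markers, so such counts are no independent check. Lower counts were found in control spermatocytes (11 of 15), control differentiating spermatogonia (11 of 12) and stromal cells (11 of 12 in both libraries). Leydig cells had 9 and 8 of 10, and knockout myoid cells 9 of 10. Psma7 itself was lower in the knockout library in every class compared, from a log2 ratio of -1.0 in endothelial cells and in macrophages to -1.45 in Sertoli cells. In undifferentiated spermatogonia it was at -1.21 (-1.37 to -1.07), close to Leydig cells (-1.21) and stromal cells (-1.16). The differentiating cluster led by Ephb2, with 39 knockout cells, lay outside that range at -3.11 (-3.64 to -2.65), from 2935 and 36 UMIs. So did a shallow germ cluster without a stage, led by Ftl1 (238 and 60 cells). Psma7 was at -1.99 (-2.53 to -1.52) there, from 471 and 37 UMIs. Which exons are floxed is not given, and the counted tag may lie outside them. Undifferentiated spermatogonia numbered 778 control and 295 knockout cells, and Sertoli cells 3849 and 6550. Differentiating spermatogonia numbered 1021 and 45, meiotic entry cells 972 and 1, and spermatocytes 466 and 0, so the late germ cells are described in the control alone. In all, 29 cell barcodes occur in both libraries.

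The undifferentiated class is not the same mix in both libraries. It holds 3 clusters: one led by Kcnc2 with Gfra1 among its leading genes (the Gfra1 cluster, 250 control and 231 knockout cells), one led by Rin2 with Egr4 among them (the Egr4 cluster, 233 and 56 cells), and one led by Nkain3 (295 and 8 cells) that rests on only 3 markers and has Cdk6 itself among its 10 leading genes. Values are therefore given for the class and for the Gfra1 cluster, the only one with over 100 cells from each library.

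The D cyclins formed a relay along the germ line of the control. Ccnd2 and Ccnd3 were the D cyclins of the earliest cells, Ccnd1 was the main D cyclin of the later differentiating clusters and of meiotic entry, and all of them were low in spermatocytes. Ccnd3 (chromosome 17, 47505051 to 47599691, plus strand) stood at 266 CPM (250 to 283) in the Gfra1 cluster and 241.5 in the Egr4 cluster. It was at 122 CPM in the Nkain3 cluster, 88.1 in the first differentiating cluster, led by Ephb2, and 22.7 to 36.9 in the next 4 clusters. Ccnd2 (chromosome 6, 127125162 to 127152193, minus strand) stood at 217 CPM (202 to 232) in the Gfra1 cluster, 119 in the Egr4 cluster and 118 in the Ephb2 cluster, where it was still the first of the D cyclins with 39.9% of their UMIs, beside 30.4% for Ccnd1.

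**Figure D1:**
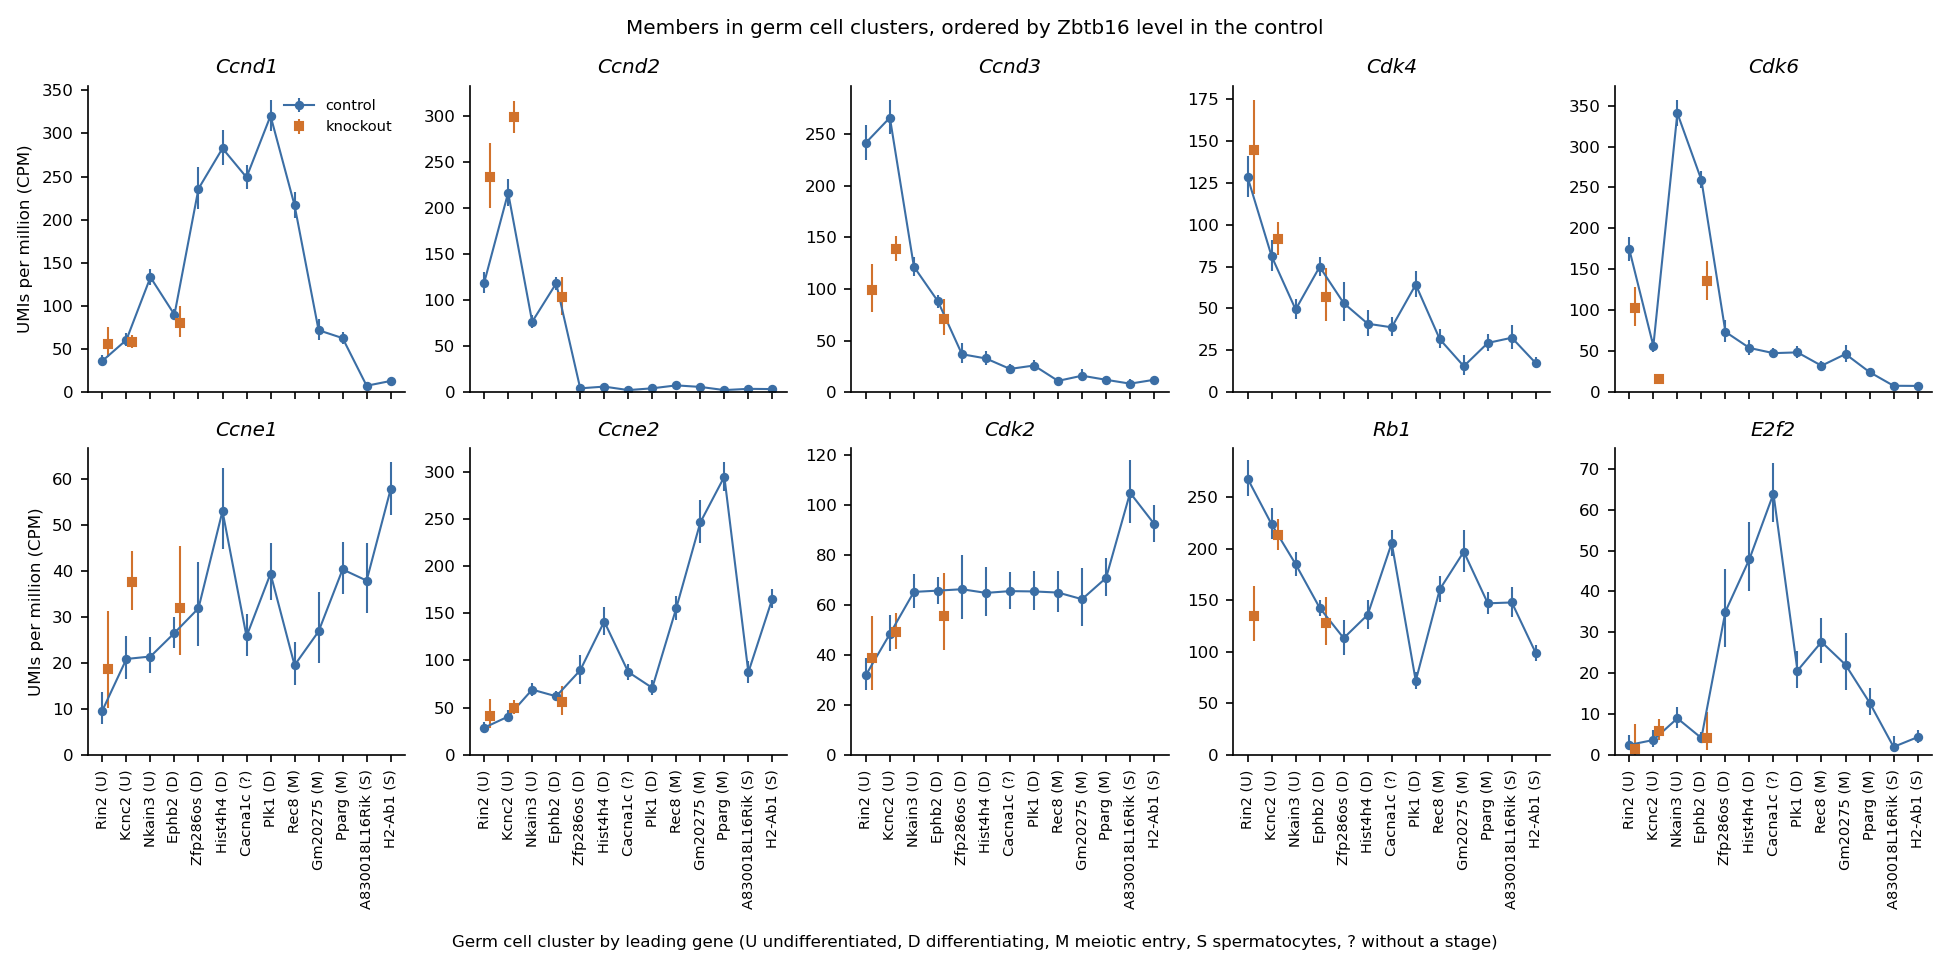
Level of each of the 10 genes in 13 germ cell clusters, in CPM, with clusters on the x axis named by their leading gene and ordered by falling Zbtb16 level in the control. Blue points are the control and orange squares the knockout library, shown where it has at least 30 cells; bars are 95% counting intervals. Ccnd2 and Ccnd3 are high in the first clusters, Ccnd1 peaks at 321 CPM and Ccne2 at 295 CPM later, and the orange Cdk6 squares lie below the blue points in all 3 clusters shown.

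Past the Ephb2 cluster Ccnd2 was low in the control germ clusters drawn. The 9 later ones held 2.47 to 7.59 CPM of it, below the 87.7 CPM found in the free RNA of that library, while the shallow Ftl1 cluster without a stage, which is not drawn, held 89.9 CPM (76 UMIs). Ccnd1 (chromosome 7, 144929931 to 144939925, minus strand) ran the other way. It was at 36.4 CPM in the Egr4 cluster, 60.8 in the Gfra1 cluster, 133 in the Nkain3 cluster and 90.01 in the Ephb2 cluster, and then at 236 to 321 CPM in the 4 clusters that follow, with the top in the cluster led by Plk1 (303 to 338). Ccnd1 stayed at 217 CPM in the meiotic entry cluster led by Rec8, was at 62.9 in the one led by Pparg, and was at 7.67 and 13.2 CPM in the spermatocyte clusters. Of all D cyclin UMIs, Ccnd1 thus made up 20.9% in undifferentiated spermatogonia, 60.1% in differentiating ones and 87.1% (85.4 to 88.8, exact Clopper-Pearson) at meiotic entry.

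In the knockout library the undifferentiated spermatogonia were richer in Ccnd2 and poorer in Ccnd3. Ccnd2 was at 130.2 CPM in the control class and 281 CPM in the knockout class, a log2 ratio of 1.11 (1.01 to 1.22). Within the Gfra1 cluster it was at 217 and 299 CPM, a smaller difference of 0.46 (0.33 to 0.59), and within the Egr4 cluster at 119 and 234 CPM, or 0.98 (0.71 to 1.24). The knockout level was the higher one in the class and in both clusters, and the intervals of the levels did not overlap.

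Ccnd3, the cyclin of this family best known from blood cells, was at 196 CPM in the control class and 132 CPM in the knockout class, a log2 ratio of -0.57 (-0.71 to -0.45). In the Gfra1 cluster it was at 266 and 139 CPM, or -0.93 (-1.09 to -0.78), and in the Egr4 cluster at 241.5 and 99.0 CPM, or -1.28 (-1.65 to -0.94). Its lower level in knockout spermatogonia was thus larger within clusters than in the class as a whole, where the control also holds the Nkain3 cells with their lower Ccnd3. With each library clustered alone, which gives classes of 1130 control and 140 knockout cells, the class ratio of Ccnd3 was 0.15.

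Ccnd1 did not keep 1 direction among the undifferentiated cells. It was at 86.3 and 61.2 CPM in the class (log2 ratio -0.49, -0.69 to -0.31), at 60.8 and 58.5 CPM in the Gfra1 cluster (-0.06, -0.33 to 0.22) and at 36.4 and 56.2 CPM in the Egr4 cluster (0.64, 0.08 to 1.14). The D cyclins summed to 413 CPM in the control class and 474 CPM in the knockout class, but to 544 and 496 CPM in the Gfra1 cluster and 397 and 389 CPM in the Egr4 cluster. In the class Ccnd2 made up 31.5% (30.3 to 32.8) of the D cyclin UMIs of control cells and 59.3% (57.2 to 61.4) of those of knockout cells, and Ccnd3 made up 47.6% and 27.8%. In the Gfra1 cluster the shares of Ccnd2 were 39.9% and 60.2%, and those of Ccnd3 48.9% and 28.0%.

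**Figure D2:**
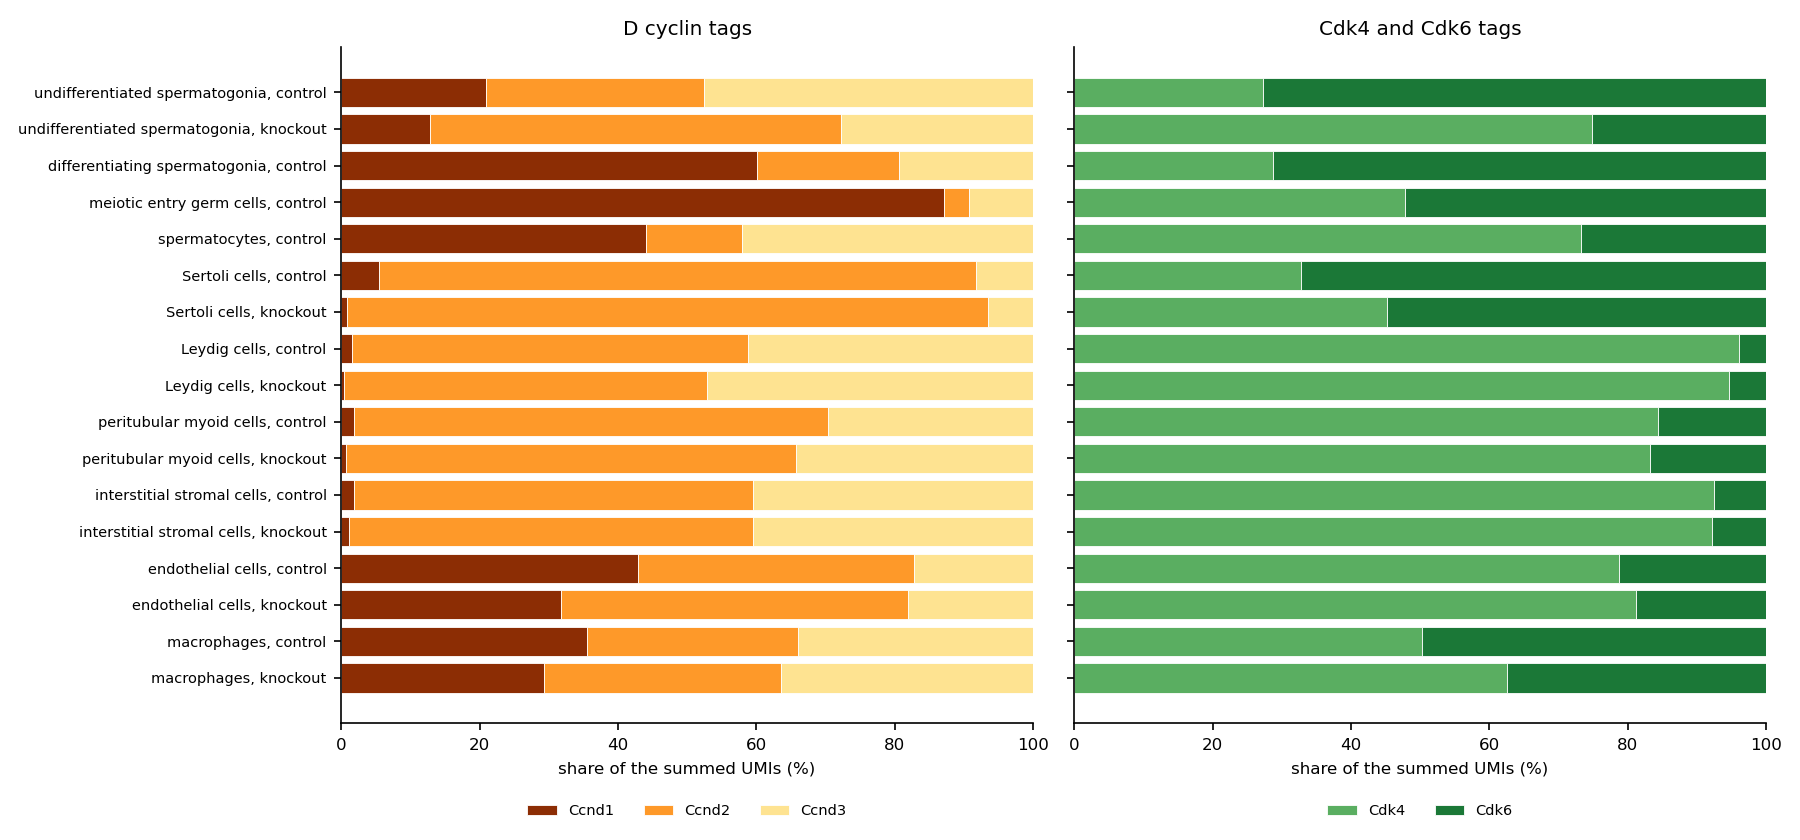
Share in percent of the summed D cyclin UMIs (left) and of the summed Cdk4 and Cdk6 UMIs (right), 1 bar per cell class and library with at least 50 cells. Ccnd2 goes from 31.5% to 59.3% and Cdk6 from 72.7% to 25.1% between the undifferentiated spermatogonia of the control and those of the knockout library, whose clusters are mixed differently (Cdk6 is at 41.1% and 14.8% in the Gfra1 cluster), and Cdk4 makes up over 90% of the pair in Leydig and stromal cells.

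Cdk6 (chromosome 5, 3341485 to 3531008, plus strand), a kinase that D cyclins activate, showed the largest difference of the 10 genes in spermatogonia. The control class held 2709 Cdk6 UMIs, or 212 CPM (204 to 220), and the knockout class 151, or 33.2 CPM (28.1 to 39.0). The log2 ratio was -2.67 (-2.92 to -2.43), 6.35-fold lower. The mix of clusters enters this value: without the Nkain3 cluster it was -1.85, and in the Gfra1 cluster alone, with 220 and 58 UMIs, the levels were 56.7 and 15.9 CPM and the ratio -1.82 (-2.28 to -1.41).

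Cdk6 was lower in the knockout library in each germ cluster with at least 30 cells from both libraries, including one without a stage led by Ftl1 (53 and 4 UMIs). It was at 174 and 103 CPM in the Egr4 cluster (-0.75, -1.12 to -0.41) and at 259 and 135 CPM in the Ephb2 cluster of differentiating cells (-0.93, -1.20 to -0.68), where only 39 knockout cells stood against 396. The class was also split by a count of at least 3 UMIs over 10 genes of the stem state (Gfra1, Etv5, Id4, Nanos2 and others). Among cells past that gate Cdk6 was at 108 and 27.3 CPM (log2 ratio -1.98, -2.29 to -1.69), and among the other cells at 304 and 77.1 CPM, -1.96 (-2.46 to -1.54). Cdk6 was thus higher outside the gate in both libraries, and lower in the knockout library on both sides of it.

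In the control, Cdk6 peaked where cells leave the undifferentiated state. Its level was 56.7 CPM in the Gfra1 cluster, 174 in the Egr4 cluster, 341 (326 to 356) in the Nkain3 cluster and 259 in the Ephb2 cluster, and it then dropped to 73.9 CPM and, in spermatocytes, to 7.86 and 8.05 CPM. Because Cdk6 is a leading gene of the Nkain3 cluster, its height there is a description of that cluster. Within the Gfra1 cluster, cells with G2 and mitosis transcripts held 66.0 CPM (control) and 17.6 CPM (knockout), and the other cells held 15 and 5 Cdk6 UMIs in all, too few for a ratio.

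Cdk4 (chromosome 10, 127063534 to 127067920, plus strand), the other kinase of the D cyclins, stayed close between the libraries. It was at 79.5 and 99.0 CPM in undifferentiated spermatogonia (log2 ratio 0.32, 0.15 to 0.48), at 81.2 and 91.4 CPM in the Gfra1 cluster (0.17, -0.06 to 0.40), and at 128 and 144.5 CPM in the Egr4 cluster (0.18, -0.15 to 0.48). Cdk4 made up 27.3% of the UMIs of the pair in the control class and 74.9% (71.2 to 78.3) in the knockout class. Its share was 58.9% and 85.2% in the Gfra1 cluster, so Cdk4 was the larger of the pair there in both libraries, and 42.4% and 58.4% in the Egr4 cluster. Control Nkain3 cells had 12.7%. Along the control germ line Cdk4 was highest in the Egr4 cluster of the clusters drawn and was at 15.6 to 32.6 CPM in those from the Rec8 cluster on.

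Of the E cyclins, Ccne1 (chromosome 7, 38097984 to 38107534, minus strand) was higher in the knockout spermatogonia and Ccne2 was not separable. Ccne1 was at 18.2 CPM (15.9 to 20.7) in the control class and 34.3 CPM (29.2 to 40.2) in the knockout class, a log2 ratio of 0.92 (0.61 to 1.21). In the Gfra1 cluster the levels were 20.9 and 37.6 CPM (0.85, 0.44 to 1.26), and in the Egr4 cluster, with 32 and 14 UMIs, the interval of the ratio, -0.06 to 1.91, includes 0. Ccne2 (chromosome 4, 11191351 to 11204779, plus strand) was at 49.9 and 48.8 CPM in the class (-0.03, -0.26 to 0.19) and at 40.5 and 49.9 CPM in the Gfra1 cluster (0.30, -0.01 to 0.62).

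Ccne2 was the gene of this set that marked entry into meiosis in the control. Its level was 28.6 CPM in the Egr4 cluster, 40.5 in the Gfra1 cluster and 61.9 in the Ephb2 cluster. It reached 156 CPM in the Rec8 cluster, 246 CPM in the cluster led by Gm20275 and 295 CPM (280 to 310) in the Pparg cluster, and was at 166 and 87.4 CPM in the spermatocyte clusters. Ccne1 stayed below 60 CPM throughout, with its highest level, 57.9 CPM, in the spermatocyte cluster led by H2-Ab1.

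Cdk2 (chromosome 10, 128697939 to 128705031, minus strand), the kinase of the E cyclins, was at 51.5 and 47.3 CPM in undifferentiated spermatogonia (-0.12, -0.35 to 0.10) and at 48.4 and 49.1 CPM in the Gfra1 cluster (0.02, -0.28 to 0.32). In the control it was nearly flat, at 62.4 to 70.9 CPM from the Nkain3 cluster to the end of meiotic entry, and was highest in the spermatocyte clusters, at 92.6 CPM (85.5 to 100.1) and 105 CPM (92.95 to 118). In spermatocytes Cdk2 thus stood above Cdk4 (21.6 CPM) and Cdk6 (7.92 CPM), an order of tags opposite to that of the control undifferentiated class. That class order was not general. In the control Gfra1 cluster Cdk4 (81.2 CPM) came first, then Cdk6 (56.7) and Cdk2 (48.4). In the knockout class Cdk4 (99.0 CPM) came first, then Cdk2 (47.3) and Cdk6 (33.2).

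Rb1 (chromosome 14, 73183673 to 73325822, minus strand), the brake that these kinases release, overlaps the gene model Gm17233 on its own strand, and reads of the pair may have been shared between them. It was at 218 and 202 CPM in undifferentiated spermatogonia (-0.12, -0.23 to -0.01) and at 224 and 214 CPM in the Gfra1 cluster (-0.07, -0.21 to 0.07). In the Egr4 cluster it was at 268 and 135 CPM (log2 ratio -0.98, -1.30 to -0.69), with 56 knockout cells. The low level is seen in the Egr4 cluster only, of the undifferentiated clusters compared; the difference between clusters was not tested.

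E2f2 (chromosome 4, 136172394 to 136196057, plus strand), an activator of the E2F family, was scarce in undifferentiated spermatogonia, with 72 and 22 UMIs. Its levels were 5.62 CPM (4.40 to 7.08) and 4.84 CPM (3.03 to 7.33), and the log2 ratio of -0.19 has an interval from -0.98 to 0.49. In the Gfra1 cluster 14 and 21 UMIs gave a ratio of 0.66 (-0.37 to 1.76). E2f2 showed no settled direction in spermatogonia: the counts are low, and the ratio turns with how the class is drawn, from -0.26 to 1.67 over 18 alternatives with its sign kept in 7.

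In the control, E2f2 was low in the first germ clusters and higher in several later ones. It was at 2.41 to 8.92 CPM in the undifferentiated clusters and 4.09 CPM in the Ephb2 cluster, then at 35.1 CPM in the cluster led by Zfp286os, 47.9 in the one led by Hist4h4 and 63.9 CPM (57.0 to 71.5) in the one led by Cacna1c, which has no stage by its markers and of which E2f2 is a leading gene. It stood at 20.6 CPM in the Plk1 cluster, 27.6 in the Rec8 cluster and 1.92 and 4.30 CPM in spermatocytes. None of the clusters in which E2f2 was high had more than 3 knockout cells.

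Of the 10 genes, Ccnd2 was at least 2-fold higher and Cdk6 at least 2-fold lower in knockout undifferentiated spermatogonia. Among all 15849 genes measured there (at least 30 UMIs over both libraries), 8.75% were at least 2-fold higher and 4.36% at least 2-fold lower, and the median gene stood at 0.06. In the Gfra1 cluster 0 of the 10 were at least 2-fold higher, beside 5.43% of all genes, and 1, Cdk6, was at least 2-fold lower, beside 1.99%. The genes were chosen on these same differences, so nothing is read from these counts.

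Other transcripts moved with the genotype in the same cells. The 17 Sertoli markers summed to 262 CPM in control and 562 CPM in knockout undifferentiated spermatogonia, 16 of 17 higher and none at 0, and to 355 and 583 CPM in the Gfra1 cluster. The 12 immediate early genes, which respond to handling of cells among other signals, summed to 765 and 1649 CPM, all 12 higher. Their part in the values above was not tested. Free RNA made up at most 4.85% and 3.82% of the UMIs of the class, and Cdk6 stood at 75.8 and 42.2 CPM in the free RNA itself.

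**Figure D3:**
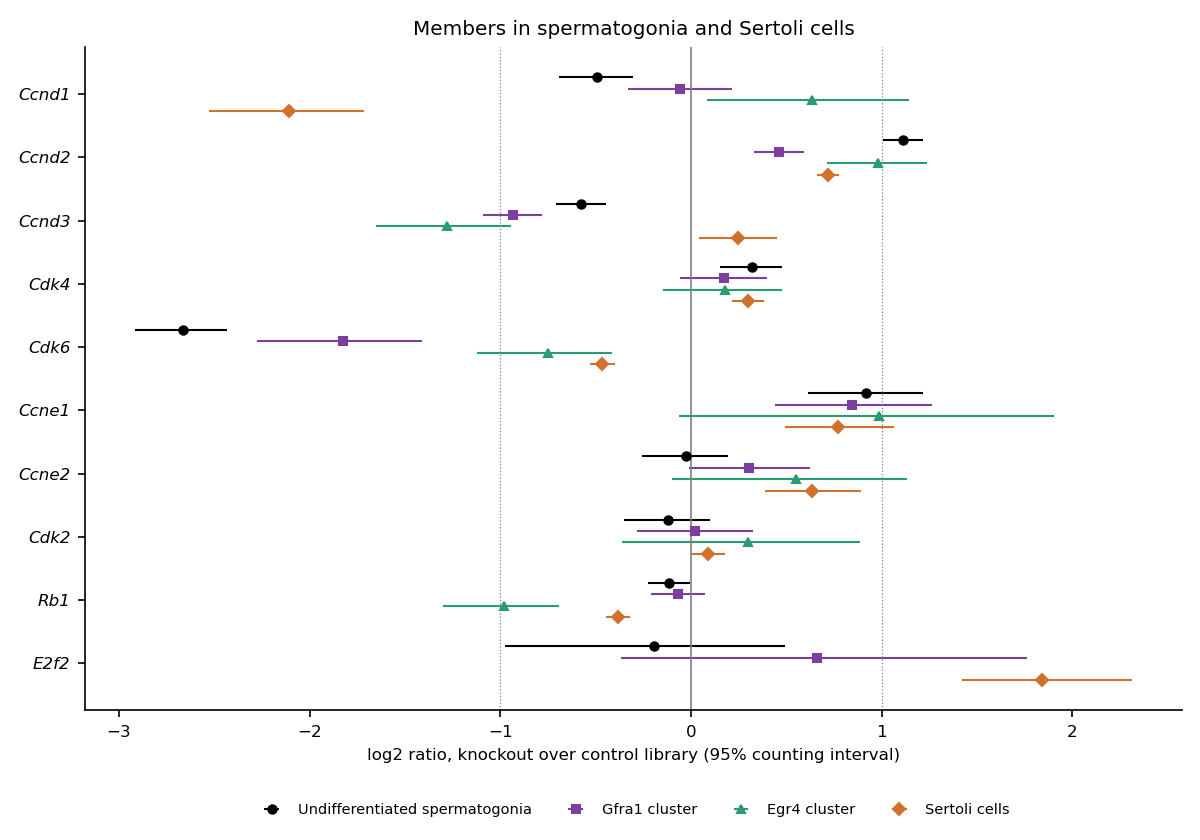
Log2 ratio of the knockout over the control library for each gene in undifferentiated spermatogonia, their Gfra1 and Egr4 clusters and Sertoli cells, with 95% counting intervals; dotted lines mark 2-fold. Points left of 0 are lower in the knockout library: Cdk6 at -2.67 and Ccnd3 at -0.57 in undifferentiated spermatogonia, and Ccnd1 at -2.11 in Sertoli cells, where E2f2 lies at 1.84. E2f2 has too few UMIs in the Egr4 cluster to be drawn.

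Around these genes, 2 inhibitors of the kinases were at least 2-fold higher in the knockout class, beside 8.75% of all genes. No factor of the E2F side was past 2-fold. In undifferentiated spermatogonia Cdkn1a, the p21 inhibitor that p53 induces, was at 3.83 and 19.1 CPM (log2 ratio 2.32, 1.80 to 2.86), and in the Gfra1 cluster at 4.12 and 21.4 CPM (2.34, 1.59 to 3.25). It was 1 of 3 CIP/KIP inhibitors past 2-fold, and Cdkn1b, the p27 inhibitor, was at 6.25 and 5.28 CPM. The third, Cdkn1c, named after its value was seen, lay between them at 0.92, just under 2-fold. In the Gfra1 cluster Cdkn1c was at 0.26. The 3 summed to 48.2 and 96.4 CPM in the class. Of the 4 INK4 inhibitors, which bind CDK4 and CDK6, Cdkn2b (p15) was at 17.9 and 36.5 CPM (1.03, 0.73 to 1.33), and in the Gfra1 cluster, just under 2-fold, at 19.3 and 38.4 CPM (0.99, 0.58 to 1.42). Cdkn2c (p18) was at -0.58 and Cdkn2d (p19) at -0.03.

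Of 2 other pocket proteins and 9 other E2F factors and partners, none was past 2-fold in either direction in undifferentiated spermatogonia or the Gfra1 cluster. Rbl1 (p107) was at 54.1 and 36.8 CPM (-0.55, -0.81 to -0.31), and E2f1, an activator like E2f2, at 56.9 and 75.9 CPM (0.42, 0.23 to 0.60). The extremes of the E2F list were E2f6, a repressor, at 0.62 and the partner Tfdp2 at -0.42. Of 28 E2F target genes, most of them genes of DNA replication, 0 were past 2-fold either way, with a median of 0.12 against 0.06 for all genes and a range from Cdc6 at -0.50 to Tk1 at 0.79.

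None of the 11 genes for turnover of cyclins and inhibitors was past 2-fold either, from Skp2, the F-box protein that targets p27, at -0.43 to Cul3 at -0.01. Their median was -0.13. The 4 genes of the CDK-activating kinase and phosphatase lay between Mnat1 at -0.26 and Ccnh at 0.30. Of 26 genes of G2 and mitosis, 19 had a ratio above 0 and none was past 2-fold, from Plk1 at -0.44 to Ccnb2 at 0.81, with Mki67 at 0.29.

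Upstream, 4 of the 6 measured genes of the Myc and growth signal list were at least 2-fold higher in the knockout class, beside 8.75% of all genes. The 4 were Spry4 (2.04), Dusp6 (1.75), Egr1 (1.55) and Etv5 (1.20), genes that answer growth factor signals. Dusp6, Egr1 and Etv5 are named after their values were seen. Egr1 is also 1 of the 12 immediate early genes, 10 of which were at least 2-fold higher in the class. In the Gfra1 cluster none of the 4 passed 2-fold, and Etv5 was at 142 and 149 CPM, and Spry4 at 17.3 and 28.8 CPM. Myc had only 14 and 15 UMIs in the class, and Mycn was at -0.11. Etv5 is also a gene of the stem gate. Past that gate stood 340 of 778 control cells (43.7%, 40.2 to 47.3) and 228 of 295 knockout cells (77.3%, 72.1 to 81.9). With each cell thinned to 5000 UMIs, and 85 and 37 shallower cells left out, the shares were 28.7% (25.4 to 32.2) and 57.8% (51.5 to 63.9).

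Sertoli cells nurse the germ line within the tubule. Summed over the class, they had Ccnd2 as the main D cyclin and Cdk6 as the larger of the kinase pair by tags in both libraries. Ccnd2 made up 86.2% of control and 92.7% of knockout D cyclin UMIs, and Cdk6 67.3% and 54.8% of the UMIs of the kinase pair. The kinase order was not shared by all Sertoli clusters. In both clusters led by Cst9, Cdk4 was the larger in both libraries. In one of them Cdk4 was at 132 and 171 CPM and Cdk6 at 107 and 103 CPM. In the other, Cdk4 was at 288 and 310 CPM and Cdk6 at 20.1 and 28.0 CPM. Cdk6 was the larger in the remaining clusters with at least 50 cells in a library. Ccnd2 was at 117 CPM (113 to 121) and 193 CPM (188 to 197), a log2 ratio of 0.72 (0.66 to 0.77). Cdk6 was at 129 and 93.5 CPM (-0.47, -0.53 to -0.40), Cdk4 at 62.9 and 77.2 CPM (0.30, 0.21 to 0.38) and Rb1 at 141 and 108 CPM (-0.38, -0.45 to -0.32).

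Different clusters held most Sertoli cells of each library. The cluster led by Gm12703 held 84 control and 2411 knockout cells and that led by Erbb4 131 and 1359, while that led by 1700018G05Rik held 1333 and 56 and that led by Tmem255a 1082 and 256. Ccnd2 was higher in the knockout library in 8 of the 8 clusters with at least 50 cells from both, for example 156 and 229 CPM in the cluster led by 1700018G05Rik and 137 and 225 CPM in the one led by Gm12703. Cdk6 was lower in 5 of 8 and higher in 3, so its class ratio was not shared by all clusters. Rb1 was lower in 6 of 8. The 12 immediate early genes summed to 3757 and 7182 CPM in Sertoli cells, all 12 higher, and their part in these values was not tested.

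E2f2 and Ccnd1 had the largest ratios of the 10 genes in Sertoli cells, both at low levels. Control cells held 52 E2f2 UMIs, or 1.78 CPM (1.33 to 2.34), and knockout cells 254, or 6.44 CPM (5.67 to 7.28), for a log2 ratio of 1.84 (1.42 to 2.31). In the knockout library 26.6 CPM of it stood in the cluster of dividing cells led by Iqgap3, which has 296 knockout and 9 control cells, and 8.91 CPM in the cluster led by Gm12703. Without the Iqgap3 cluster the ratio was 1.54. Cluster by cluster E2f2 was higher in the knockout library in 4 of 8, lower in 3 and at 0 in both libraries in 1, on counts of 0 to 28 UMIs in the control.

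Dividing Sertoli cells, taken as those with at least 3 UMIs and 0.1% of their UMIs in the G2 and mitosis list, were 163 of 3849 control cells (4.23%, 3.62 to 4.92) and 636 of 6550 knockout cells (9.71%, 9.003 to 10.5). With each cell thinned to 2000 UMIs, and 264 and 570 shallower cells left out, the shares were 4.18% (3.55 to 4.89) and 9.75% (9.01 to 10.5). E2f2 was higher in the knockout library in both parts. In dividing cells it was at 2.20 and 16.5 CPM (2.69, 1.31 to 5.21, with 3 and 84 UMIs), and in the other cells at 1.76 and 4.95 CPM (1.48, 1.02 to 1.98).

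The E cyclins went in opposite directions in these parts. Cluster by cluster the class ratio did not hold for them either: Ccne1 was lower in the knockout library in 6 of 8 clusters and Ccne2 in 5 of 8. Ccne1 was at 5.04 and 8.62 CPM in all Sertoli cells (0.77, 0.49 to 1.06) and at 4.31 and 8.15 CPM in those not dividing (0.91), but at 19.8 and 11.8 CPM in dividing ones (-0.76, -1.43 to -0.04). Ccne2 was at 6.61 and 10.3 CPM in all (0.64, 0.39 to 0.89, and from 0.39 to 2.90 over 15 alternatives), at 4.82 and 8.38 CPM in those not dividing (0.80) and at 43.3 and 23.2 CPM in dividing ones (-0.91, -1.36 to -0.42). The dividing control cells also held germ cell markers at 3010 CPM in sum, against 552 CPM in dividing knockout cells and 785 and 592 CPM in the others; their part in these values was not tested.

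**Figure D4:**
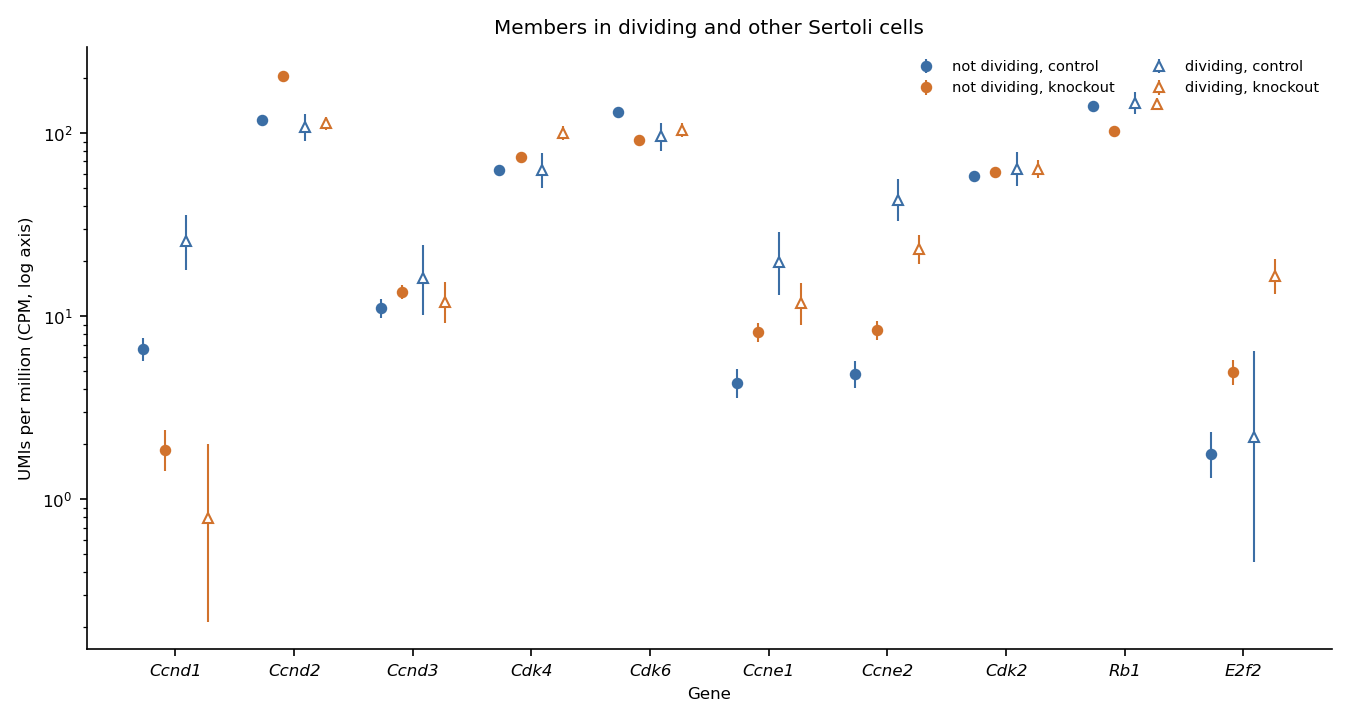
Level of each gene in CPM (log axis) in Sertoli cells that are dividing (open triangles) or not (filled circles), control in blue and knockout library in orange, with 95% counting intervals. Ccnd2 lies at 118 and 205 CPM in cells that are not dividing and at 108 and 113 CPM in dividing ones, while E2f2 is higher in the knockout library in both. The dividing cells differ between the libraries in their summed G2 and mitosis genes (2154 and 4839 CPM).

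In Sertoli cells Ccnd2 was at 118 and 205 CPM in cells not dividing (0.80, 0.74 to 0.86) and at 108 and 113 CPM in dividing cells (0.06, -0.20 to 0.34). Cdk6 was at 131 and 91.9 CPM (-0.51, -0.58 to -0.44) in cells not dividing and at 96.1 and 104 CPM (0.11, -0.16 to 0.40) in dividing ones. The difference between the parts was not tested. Cdk4 was at 63.1 and 100.3 CPM in dividing cells (0.66, 0.34 to 1.02). The dividing values depend on the threshold: with at least 0.3% of UMIs in the list they were 0.35 for Ccnd2, 0.43 for Cdk6 and 0.18 for Cdk4.

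Ccnd1 was at 7.47 CPM (6.51 to 8.53) in control and 1.72 CPM (1.34 to 2.19) in knockout Sertoli cells, a log2 ratio of -2.11 (-2.53 to -1.72). It was lower in the knockout library in 6 of 8 clusters and higher in 2. In those 2 the control held 0 Ccnd1 UMIs, beside 1.78 CPM (led by Gm12703) and 3.40 CPM (led by Gm26917) in the knockout library. In the free RNA of the libraries Ccnd1 stood at 64.9 and 11.9 CPM, and free RNA made up at most 4.85% and 4.51% of Sertoli UMIs. With free RNA subtracted at those shares the ratio was -1.86, and at 10% of the UMIs it was -0.87. The size of the ratio thus depends on the free RNA subtracted. In dividing cells Ccnd1 was at 25.7 and 0.787 CPM, from 35 and 4 UMIs, beside the germ cell markers given above.

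Of the 10 genes, 1, E2f2, was at least 2-fold higher in knockout Sertoli cells, beside 8.45% of all genes measured there, and 1, Ccnd1, at least 2-fold lower, beside 4.08%. Ccne2 was at 2-fold as well with a minimum of 2000 UMIs per cell (1.0015), doublets kept (1.02) or resolution 2 (1.0003), and past it with free RNA subtracted at the measured share (1.29) or at 10% (2.90, where Ccne1 was at 1.25). The median gene stood at 0.04, Ccnd3 at 0.24 (11.3 and 13.4 CPM, 0.04 to 0.45) and Cdk2 at 0.09 (58.3 and 62.0 CPM). Here too the genes were chosen on this contrast.

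Several lists of other pathway genes held differences of 2-fold in Sertoli cells. Of 26 G2 and mitosis genes, 19 were at least 2-fold higher in the knockout library, beside 8.45% of all genes, and none lower. Ube2c was highest (12.7 and 58.1 CPM, 2.19), and Mki67 was at 6.61 and 29.8 CPM (2.17). In the cells not dividing, a part set by this same list, it summed to 283 and 241 CPM, with 6 of 26 higher. Of 28 E2F targets in the whole class 0 were past 2-fold, from Cdc45 at -0.41 to Ccna2 at 0.92, with a median of 0.05. Of 9 other E2F factors and partners 2 were at least 2-fold higher, the repressors E2f8 (0.480 and 2.33 CPM, 2.24) and E2f7 (1.23 and 4.46 CPM, 1.84), the latter named after its values were seen, and E2f1 was at 0.80.

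Among the INK4 inhibitors of Sertoli cells, Cdkn2c was higher (6.27 and 15.5 CPM, 1.30) and both Cdkn2b (23.7 and 10.2 CPM, -1.21, named after its values were seen) and Cdkn2a (8.84 and 1.29 CPM, -2.76) were lower. Cdkn2d was at -0.49, Cdkn1a at -0.90 and Cdkn1b at 0.11. None of the 11 turnover genes was past 2-fold, from Fbxo31 at -0.30 to Fzr1 at 0.55. Rbl1 was at 0.33 and Rbl2 at -0.46, Myc at -0.37 and Spry4 at 1.08.

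Cells outside the tubule held mostly Cdk4. In Leydig cells, which make testosterone, Cdk4 was at 204 and 201 CPM and Cdk6 at 8.20 and 11.4 CPM, so that Cdk4 made up 96.1% and 94.6% of the UMIs of the pair. In stromal cells the share of Cdk4 was 92.5% and 92.1%, in peritubular myoid cells, the contractile wall of the tubule, 84.4% and 83.3%, and in endothelial cells 78.7% and 81.3%. Macrophages were the somatic class besides Sertoli cells with a large Cdk6 share, 49.7% and 37.5%, with Cdk6 at 122 and 86.7 CPM (-0.49, -0.84 to -0.15).

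Ccnd2 was the first D cyclin in stromal cells (344.5 and 390 CPM), myoid cells (273 and 332 CPM) and Leydig cells (193 and 214 CPM), each with Ccnd3 second. In the control the order of Ccnd2 levels was stroma, myoid cells, endothelium (238 CPM), Leydig cells, Sertoli cells and macrophages (80.0 CPM), and no neighbours in that order had overlapping intervals. Ccnd3 was higher in the knockout library in Leydig cells (139 and 193 CPM, 0.47) and myoid cells (118 and 175 CPM, 0.56). Both classes join 2 clusters mixed differently by library: 255 control and 458 knockout cells in one Leydig cluster, named on 3 markers, and 257 and 233 in the other, and 605 and 424 beside 277 and 383 in the myoid ones. At resolution 2 the Leydig class held 197 and 178 cells. The class named endothelial cells was the somatic one with the most Ccnd1, at 257 CPM (236 to 279) and 162 CPM (140 to 188). Its log2 ratio was -0.66 (-0.91 to -0.42). This class of 127 and 89 cells is led by Rgs5, a pericyte marker, and probably holds pericytes as well. At resolution 2 the endothelial class held 87 and 63 cells, and 40 and 26 cells were named pericytes. The part of pericytes in the endothelial values given here was not tested.

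At most 2 of the 10 genes were past 2-fold in any of these classes. In Leydig cells 1 gene, Ccnd1 (5.42 and 1.67 CPM, -1.68), was past 2-fold in either direction, beside 2.35% of all genes, and in myoid cells 2, Ccnd1 (7.45 and 3.42 CPM, -1.11) and E2f2 (4.33 and 1.64 CPM, -1.37, from 25 and 11 UMIs), beside 3.39%. None was past 2-fold in stromal cells (3.17% of all genes), endothelial cells (3.41%) or, of 9 measured, macrophages (3.77%). Free RNA made up at most 13.7% and 5.82% of the UMIs of Leydig cells and 17.7% and 9.05% of those of myoid cells, beside its Ccnd1 levels given above; its part was not tested. Ccne1 in stromal cells was at 5.92 and 10.6 CPM (0.84, 0.48 to 1.23).

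Over the 17 profiles of classes with at least 50 cells in a library, the genes most like each of the 10 in their log2 levels were looked up among 11748 genes, as a description; profiles of 1 library share depth and free RNA. Ccne1 ran with Spc25 (Pearson r 0.95), Top2a (0.95) and Ppp2r3c (0.94), the former pair genes of the kinetochore and of DNA decatenation in mitosis. Ccne2 ran with Atad5 (0.98), which unloads the replication clamp, and with Chchd4 (0.97) and Ppil4 (0.97). E2f2 ran with the histone gene Hist1h2ap (0.87), Zdhhc18 (0.86) and Knstrn (0.80), a gene of the mitotic spindle, and Cdk6 with Fam78b (0.89), Hsdl1 (0.88) and Lonrf1 (0.87).

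The D cyclins ran with different genes from each other. Ccnd1 was most like Dgkz (0.93), Hhex (0.93) and Smagp (0.92), Ccnd2 like Rbms2 (0.97), Piezo1 (0.96) and Gabarapl1 (0.96), and Ccnd3 like Pygl (0.94), Eif4e3 (0.93) and Lhfpl2 (0.93). Cdk4 ran with Eif2s3x (0.97), Txndc5 (0.97) and Ctdsp1 (0.97), Cdk2 with Sgsm3 (0.95), Papola (0.95) and Kctd13 (0.95), and Rb1 with Pak2 (0.96), Dip2b (0.95) and Tmem131l (0.95). None of the 10 genes was among the 3 closest matches of another.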

How the data were processed

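The authors deposited 1 unfiltered matrix of raw UMI counts per library, and the file headers name Cell Ranger 7.1.0; the genome was mm10 per the submitters' processing notes. The 10 genes, the pathway lists and the markers were chosen with earlier results of these data known. Barcodes with at least 1000 UMIs, at least 500 genes and at most 20% mitochondrial UMIs were kept, and Scrublet doublets were removed at the threshold set in the control library (4.41% of control and 2.53% of knockout cells), because its own threshold marked none in the knockout library. Cells were scaled to 10000 UMIs, and 2000 variable genes without the 10, 30 principal components and 15 neighbours gave 25 Leiden clusters at resolution 1 (scanpy 1.11.5, leidenalg 0.10.2, scipy 1.17.1, numpy 2.4.6, pandas 2.3.3, Python 3.11.15). Germ cells were then clustered again into 16, and ties in naming were settled by leading genes and marker level, both after seeing the data. A cluster was named from at least 3 markers that were 1.5-fold above other cells and in at least 20% of its cells. Counts were summed by class and library. A gene with at least 30 UMIs over both libraries counted as measured, ratios add 0.5 to each count, and 2-fold was the call. Barcodes holding 10 to 100 UMIs served as the measure of free RNA. Genes were named as members, as the highest and lowest of each list, as 8 set pathway genes and as the 3 closest patterns. The interval script was tested on simulated data. Gene positions are from GENCODE M21 (mm10). The alternatives tried were other cell filters, doublets kept, other clusterings, marker gates, free RNA subtracted and single clusters left out. Median depth was 8046 UMIs per control cell and 5395 per knockout cell kept.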

Additional observations from a re-analysis of the deposited data

Results flagged for a closer look

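Ccnd3 went in opposite directions in the cells compared. Its log2 ratio of knockout over control was -0.57 in undifferentiated spermatogonia and 0.24 in Sertoli cells; the difference between them was not tested, and each value rests on 1 library per genotype. Neither sign held under every alternative: the ratio in undifferentiated spermatogonia was 0.15 with each library clustered alone, and the ratio in Sertoli cells was -0.47 with free RNA subtracted at 10% of UMIs.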

How the results depend on the processing

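No paired analysis was possible because there is 1 library per genotype. Over all results and alternatives 285 values moved by less than their counting interval and 85 moved further; no value called 2-fold changed sign. In undifferentiated spermatogonia the log2 ratio of Ccnd2 was 0.97 with a minimum of 500 UMIs per cell, 0.62 with 2000 UMIs, 0.67 with at most 10% mitochondrial UMIs, 1.22 with doublets kept, 0.77 at resolution 2, 1.27 with each library clustered alone, 0.99 without cell cycle genes in the clustering, 0.95 with germ cells clustered again at resolution 2, 0.46 in the Gfra1 cluster only and 0.74 without the Nkain3 cluster. In the same cells Cdk6 was at -2.07 with 2000 UMIs, -1.99 with 10% mitochondrial UMIs, -2.41 at resolution 2, -2.18 without cell cycle genes, -2.18 with germ cells not clustered again, -1.82 in the Gfra1 cluster and -1.85 without the Nkain3 cluster, below 0 in 18 of 18 alternatives. E2f2 was at 0.53 with 2000 UMIs, 0.64 at resolution 2, 0.92 with each library alone, 1.67 with marker gates, 0.66 in the Gfra1 cluster and 0.71 without the Nkain3 cluster, and kept its sign in 7 of 18. Ccne1 was at 0.52 with each library alone, 1.57 with marker gates and 1.25 with cells weighted equally. In Sertoli cells Ccnd2 was at 0.65 with 10% mitochondrial UMIs, and with free RNA subtracted at 10% Ccnd1 was at -0.87 and E2f2 at 2.33. The values for germ cells not clustered again or clustered again at resolution 2, and for clusters taken alone or left out, were chosen after seeing the data. The causes were not tested. In Sertoli cells Ccne2 ranged from 0.39 to 2.90 over 15 alternatives, 6 of them beyond its interval. With 1 library per genotype the spread between animals is unknown, and low counts, such as the 72 and 22 UMIs of E2f2 in undifferentiated spermatogonia, limit the precision.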
